A study of Mus musculus with 2 samples.

Results

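Cells of the developing hair follicle (HF) that carry the keratins of the inner root sheath (IRS) were taken from single-cell RNA sequencing of mouse back skin at postnatal day 1 (P1). A cell was selected on its measured UMIs (unique molecular identifiers, each marking 1 captured mRNA molecule): the summed UMIs of Krt71, Krt25, Krt27 and Krt73 had to reach 20 per 10000 UMIs of the cell. Of 16453 cells with 2000 to 60000 UMIs, 1000 to 8000 genes and at most 20% mitochondrial UMIs, 392 passed, which is 2.38% (exact binomial 95% interval 2.15% to 2.63%). The PADI4 WT library gave 232 of them and the library labelled PADI4 cKO gave 160. Because measured values of these 4 keratins chose the cells, the contrast between the 392 cells and the others is given as a description throughout.

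Both libraries were 10x Genomics 3′ libraries of untreated P1 animals, made from the dermal fraction of the back skin, and both carry the label batch 1. The cells were sorted for tdTomato, a red fluorescent reporter switched on by K14-Cre, a recombinase under the promoter of keratin 14, which is active in the basal epithelium from which the HF grows. The cKO animals came from a cross of this line to Padi4 fl/fl mice, in which Cre removes a stretch of Padi4, the gene of a protein-citrullinating enzyme. The protocol text of both samples names the floxed line, and the genotype tag of each sample was used to tell them apart. The floxed line is named B6.Cg-Padi4tm1.2Kmow/J and the reporter line Ai14 in the methods. The background of the crossed animals, and their number and sex behind each library, are not given in the sources used here. With 1 library per genotype no replicate spread exists, so no test was possible and every interval below is one of counting error alone.

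The IRS is the sheath of hardened cells that surrounds the growing hair shaft (HS), moulds it and is later broken down. Its layers (the Henle layer, the Huxley layer and the cuticle) arise from proliferating matrix cells at the base of the HF, and their precursors carry the transcription factor GATA3. During differentiation these cells build keratin filaments from a type I and a type II partner, fill with trichohyalin granules and cross-link them, and citrullination by PADI enzymes is part of that hardening. KRT71 and KRT73 are type II keratins of the IRS, and KRT25, KRT27 and KRT28 are type I keratins of the IRS.

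The genes of these keratins lie in the 2 keratin gene clusters of the mouse genome. In GENCODE annotation of GRCm38, Krt71 spans chr15:101733949-101743109 and Krt73 chr15:101793308-101802346, while Krt25 (chr11:99315516-99322951), Krt27 (chr11:99345565-99351104) and Krt28 (chr11:99364872-99374903) are neighbours on chromosome 11, all on the minus strand. The 250 bases before the RefSeq start of each gene are shown because these genes were the ones that set the cells apart and Gata3 mRNA was found in nearly all of the cells. They are written 5′ to 3′ on the strand of the gene (GRCm38.p6), with capitals marking matches to AGATAA, to the TATA box core TATAAA and to the homeodomain core TAATTA. Each motif was searched on both strands.
Krt71, chr15:101743098-101743347: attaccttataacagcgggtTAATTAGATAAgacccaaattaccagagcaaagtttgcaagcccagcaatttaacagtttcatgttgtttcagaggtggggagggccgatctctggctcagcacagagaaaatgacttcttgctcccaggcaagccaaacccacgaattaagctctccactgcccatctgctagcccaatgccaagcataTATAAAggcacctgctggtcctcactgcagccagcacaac
Krt73, chr15:101802361-101802610: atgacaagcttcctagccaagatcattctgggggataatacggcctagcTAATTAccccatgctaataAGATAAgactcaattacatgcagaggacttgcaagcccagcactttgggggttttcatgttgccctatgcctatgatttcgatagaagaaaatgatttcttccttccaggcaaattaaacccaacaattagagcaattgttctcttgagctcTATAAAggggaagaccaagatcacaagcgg
Krt25, chr11:99322952-99323201: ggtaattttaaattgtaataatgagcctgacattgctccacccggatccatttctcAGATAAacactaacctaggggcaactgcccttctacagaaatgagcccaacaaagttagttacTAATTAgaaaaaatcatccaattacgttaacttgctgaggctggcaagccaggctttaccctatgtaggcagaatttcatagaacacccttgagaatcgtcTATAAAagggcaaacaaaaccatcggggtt
Krt27, chr11:99351119-99351368: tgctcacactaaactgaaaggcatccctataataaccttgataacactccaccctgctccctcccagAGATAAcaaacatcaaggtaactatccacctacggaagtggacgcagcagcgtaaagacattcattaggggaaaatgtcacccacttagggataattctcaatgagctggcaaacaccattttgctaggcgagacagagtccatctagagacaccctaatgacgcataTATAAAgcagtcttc
Krt28, chr11:99374904-99375153: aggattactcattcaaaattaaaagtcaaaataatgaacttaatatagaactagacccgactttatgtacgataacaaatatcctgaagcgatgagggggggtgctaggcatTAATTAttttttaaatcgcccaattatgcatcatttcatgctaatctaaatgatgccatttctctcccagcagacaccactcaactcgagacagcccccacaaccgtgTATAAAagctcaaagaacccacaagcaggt

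AGATAA, the core of the motif bound by GATA factors, was present in 4 of the 5 windows. It began 225 bases before the start in Krt71, 182 in Krt73, 194 in Krt25 and 183 in Krt27, and the window of Krt28 did not hold these letters. Of all 32851 promoter windows of the same length in the RefSeq table, 9.99% held AGATAA on either strand. TATAAA was found in all 5 windows, 30 bases before the start in Krt73, Krt25 and Krt28, 40 in Krt71 and 15 in Krt27, against 12.4% of all windows. TAATTA was found in Krt71, Krt73, Krt25 and Krt28, against 4.84% of all windows, and in Krt71 it shares its last base with AGATAA. The annotated starts of the sources differ for some genes. The RefSeq starts of Krt27 and Krt73 lie upstream of the GENCODE ones. That of Krt71 lies downstream, so its window reaches into the GENCODE span of the gene. The distances given here, those of TATAAA included, therefore depend on the annotation used. The genes belong to the same family, and the windows of Krt71 and Krt73 share further letters beside the motifs. The 5 windows are therefore not independent, and the shares over all windows give no test. These matches describe letters in a window and no binding was measured here.

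The cells were as deep as the rest of each library. The median was 14608.5 UMIs and 4161.5 genes per cell in PADI4 WT, against 14097 UMIs in the other cells, and 15876 UMIs and 4413 genes in the library labelled PADI4 cKO, against 15783.5. Of the barcodes of kept cells, 17 occurred in both libraries, and 2 IRS keratin cells of PADI4 WT and 1 of the other library were among them, though none shared its barcode with another IRS keratin cell. The libraries differed in sex: 146 of the 232 PADI4 WT cells showed Y-linked transcripts without Xist and 55 the reverse, whereas 154 of the 160 cells labelled PADI4 cKO had Xist alone and none the Y-linked UMIs alone. Padi4 UMIs were found in 2 and 1 of the IRS keratin cells, too few to check the label. Over all other cells Padi4 did not set the libraries apart either, with UMIs in 1.12% of cells (94 of 8429, 111 UMIs) in PADI4 WT and 1.05% (80 of 7632, 94 UMIs) in the library labelled PADI4 cKO, so the level of the targeted gene does not bear the label out. Counts at the 3′ end do not show whether the floxed stretch is present. Collagen UMIs (Col1a1, Col1a2 and Col3a1), which free RNA would bring into every droplet, stood at 0.840 and 0.724 CPM (100 times the UMIs per 10000 UMIs of the summed cells) in the cells, 0.973% and 0.888% of their level in droplets with fewer than 100 UMIs.

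The keratin level of the cells was a continuum rather than a step. In PADI4 WT the summed level of the 4 keratins ran from 20.1 to 1429 UMIs per 10000 with a median of 46.7, and in the library labelled PADI4 cKO from 20.1 to 650 with a median of 44.1. The other cells had a median of 0, and droplets with fewer than 100 UMIs held 6.47 and 8.67 per 10000, below the limit. Just inside the limit, at 20 to 25 per 10000, lay 38 PADI4 WT cells and 28 cells labelled PADI4 cKO, and just outside, at 15 to 20, lay 41 and 38. The level of Krt28, a keratin that the selection did not use, was 1888 CPM just outside and 1989 CPM just inside in PADI4 WT, and 1894 and 2104 CPM in the library labelled PADI4 cKO. Gata3 was at 657 and 765 CPM on either side in PADI4 WT and at 557 and 740 CPM in the other library. Cells at 5 to 10 per 10000 still had 1085 and 1083 CPM of Krt28 and 341 and 318 CPM of Gata3. The limit therefore cut a range, and the selected cells held 60.96% and 50.8% of all UMIs of the 4 keratins in the kept cells.

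**Figure D1:**
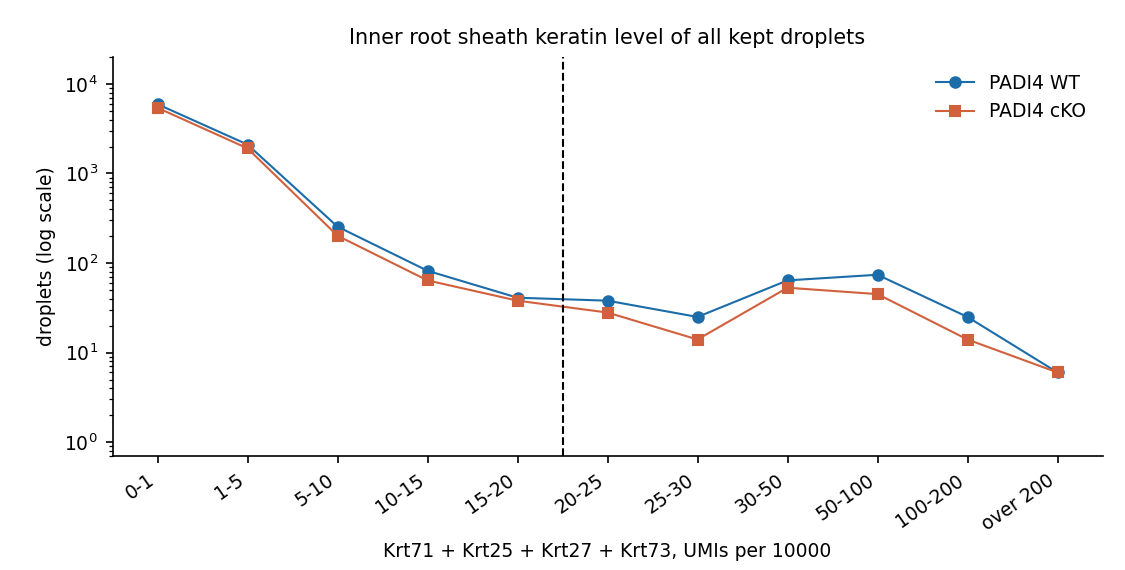
Number of kept cells (y axis, log scale) by the summed UMIs of Krt71, Krt25, Krt27 and Krt73 per 10000 UMIs of the cell (x axis, ranges of unequal width), with a line for each library. The dashed line is the limit of 20, which has 41 and 38 cells in the range to its left and 38 and 28 in the range to its right.

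The share of selected cells was 2.68% in PADI4 WT (232 of 8661 cells, exact binomial 95% interval 2.35% to 3.04%) and 2.05% in the library labelled PADI4 cKO (160 of 7792, 1.75% to 2.39%). Among cells positive for Xist but negative for Y-linked genes it was 2.45% (55 of 2241, 1.85% to 3.18%) and 2.01% (154 of 7654, 1.71% to 2.35%), and these intervals overlap. Cells positive for Y-linked genes but not Xist made up 5383 of the PADI4 WT cells, of which 2.71% were selected. The intervals given here cover counting error alone, and neither genotype has a replicate library. They therefore cannot decide whether the genotypes differ in the share of IRS keratin cells, within the same sex or over all cells.

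The selected cells carried 2 IRS markers that took no part in the selection. Gata3 UMIs were present in 96.1% of the cells in PADI4 WT (223 of 232) and in 99.4% in the library labelled PADI4 cKO (159 of 160). Hair shaft keratin cells, defined by Krt31, Krt32, Krt33a, Krt33b, Krt34, Krt35, Krt81, Krt82 and Krt86 together at 20 or more UMIs per 10000 (210 and 159 cells), had Gata3 UMIs in 13.8% and 8.81% of cells, at median depths of 13442 and 15100 UMIs. Gata3 was not restricted to the IRS keratin cells, since 63.4% and 67.4% of all other cells had at least 1 UMI of it. With each cell thinned to 2000 UMIs these shares were 75.4% and 78.8% in the IRS keratin cells, 3.81% and 1.26% in the hair shaft keratin cells and 23.1% and 22.9% in all other cells. Tchh, which encodes trichohyalin, was far more unevenly spread, with UMIs in 22.4% (52 cells) and 28.8% (46 cells) of the IRS keratin cells, against 5.71% and 5.69% of all other cells. Krt28 was found in all but 1 of the PADI4 WT cells and all but 2 of the others. Gata3 and Krt28 were thus detected in nearly all of the selected cells and Tchh in a minority.

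The 4 selecting keratins differed in how many of the selected cells carried them. Krt25 was present in all 232 PADI4 WT cells and in 157 of 160 cells of the other library, with a median of 17.9 and 20.7 UMIs per 10000. Krt73 was present in 88.4% and 92.5% of the cells with medians of 11.98 and 13.7, and Krt27 in 92.7% and 93.1% with medians of 3.34 and 3.46. Krt71 was the least widespread of the 4. It was found in 68.5% and 65% of the cells (159 and 104), with medians of 5.596 and 3.01 and maxima of 660 and 227 UMIs per 10000. The share of Krt73 in the UMIs of Krt71 plus Krt73 was therefore computed for each cell. It was at most 10% in 57 PADI4 WT cells and at least 90% in 94, and in the library labelled PADI4 cKO it was at most 10% in 20 cells and at least 90% in 72, while 1 cell had neither keratin. Between these extremes, 25 PADI4 WT cells lay between 25% and 50% and 22 between 50% and 75%, and 22 cells of the other library lay in each of these ranges, which are wider than those at the extremes. Since the cells were selected on a sum that holds both keratins, this spread is a description alone.

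Against all other cells, Krt28, Gata3, Tchh and 7 of 14 desmosomal genes were higher in the IRS keratin cells, and all 10 genes of the outer root sheath (ORS) and basal layer and all 6 fibroblast genes were lower. Of 15113 genes with at least 100 UMIs over the kept cells, 683 (4.52%) were at least 2-fold higher in both libraries and 2471 (16.4%) at least 2-fold lower, the 4 selecting keratins left out. The median log2 ratio over all genes compared was −0.08 and −0.07. Crym, which encodes a thyroid hormone-binding crystallin, led the higher genes, with 198 UMIs in the 232 cells and 161 in the 160 cells and log2 ratios of 7.001 and 8.40. Fbp1, a gluconeogenic enzyme, followed, at 163 and 178 CPM against 1.29 and 1.20 CPM in the other cells. Prr9, a proline-rich protein gene of the epidermal differentiation complex, was at 236 and 138 CPM, and Nkd2, an inhibitor of Wnt signalling, at 184 and 212 CPM against 2.30 and 2.05 CPM. Lrat, which esterifies retinol, Gsdma, a pore-forming gasdermin of differentiating keratinocytes, and Cyp4f39, a fatty acid hydroxylase needed for barrier lipids, were also among the 20 highest. The lowest included Col3a1 and Igfbp2, with 0 and 2 UMIs in PADI4 WT cells and 0 in the others.

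**Figure D2:**
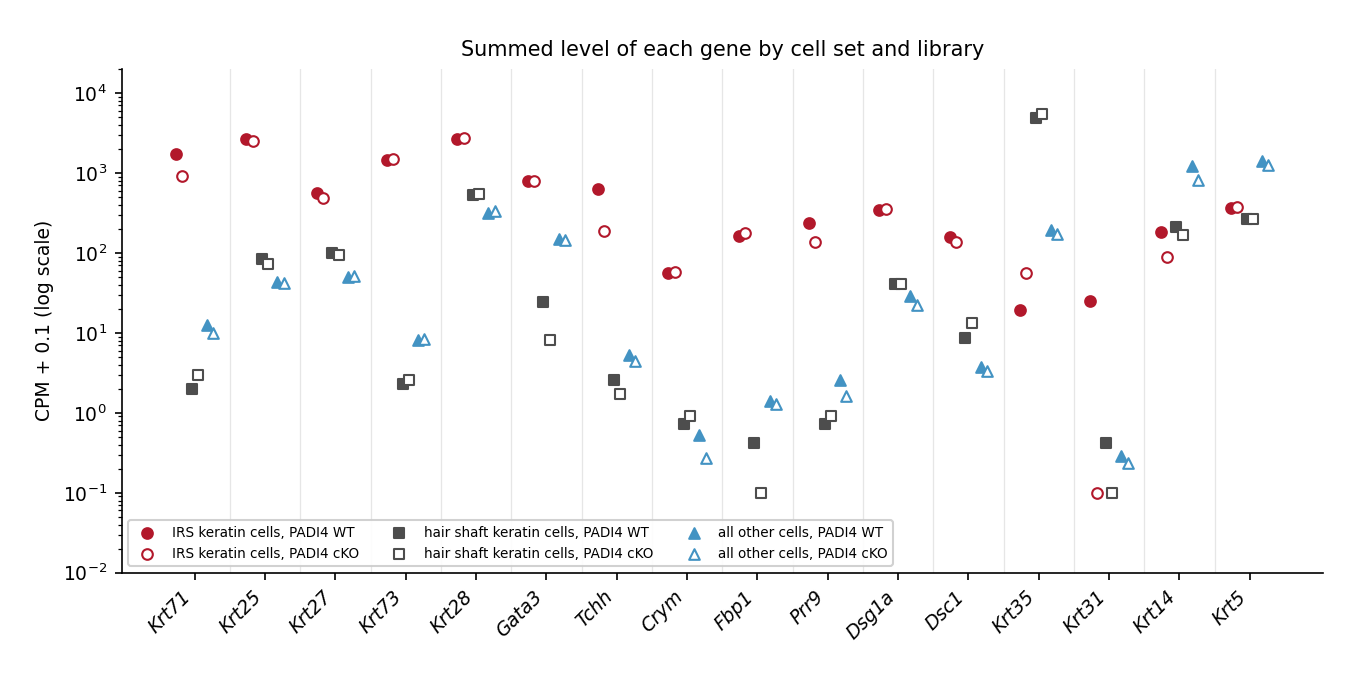
Summed level of 16 genes in CPM plus 0.1 (y axis, log scale) in the IRS keratin cells (circles), hair shaft keratin cells (squares) and all other cells, hair shaft keratin cells included (triangles), with PADI4 WT filled and PADI4 cKO open. Krt71, Krt25, Krt27 and Krt73 chose the IRS keratin cells, and Krt28, Gata3, Crym, Fbp1 and Dsc1 lie above both other sets in each library, while Krt14 and Krt5 lie below all other cells.

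Proteins that harden the IRS were represented by trichohyalin rather than by the filaggrin family. Of the 9 genes of trichohyalin, other fused S100 proteins and envelope precursors in the files, 3 could be compared and 1, Tchh, was 2-fold higher, at 630 and 190 CPM against 5.14 and 4.29 CPM in the other cells. Flg, Flg2, Hrnr, Rptn and Tchhl1 had no UMIs in any IRS keratin cell. A single PADI4 WT cell, the one with the highest keratin level (17983 UMIs), held 1661 of the 2252 Tchh UMIs of that library, and without the highest-keratin cell of each library Tchh stood at 166 and 153 CPM. That cell also held 24 of the 26 Crnn UMIs and 76 of the 77 Sprr1a UMIs, both genes of late cornification. Of 7 transglutaminases, the enzymes that cross-link these proteins, Tgm1, Tgm3 and Tgm6 were 2-fold higher among the 5 that could be compared, at low levels. Tgm1 was at 10.6 and 10.9 CPM and Tgm3 at 7.56 and 8.69 CPM, against 0.914 and 1.23 CPM (Tgm1) and 0.914 and 0.887 CPM (Tgm3) in the other cells, and Tgm5 was at 17.4 and 12.7 CPM against 22.5 and 29.5 CPM.

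Among 14 desmosomal genes compared with all other cells, 7 were 2-fold higher and 1 lower, with a median log2 ratio of 1.01 and 1.29. Against the hair shaft keratin cells 4 of the 14 were higher and 4 lower, with a median of 0.18 and 0.19. The list summed to 4462 and 4424 CPM, against 3204 and 2976 CPM in those cells. The levels that follow are set against all other cells. Dsc1 and Dsg1a, the desmosomal cadherins of differentiated layers, were at 157 and 138 CPM against 3.62 and 3.26 CPM, and at 349 and 350 CPM against 29.0 and 22.5 CPM. Dsp, which ties desmosomes to keratin filaments, was at 1077 and 968 CPM against 418 and 322 CPM, and Perp at 1786 and 1860 CPM against 565 and 503 CPM. Dsg3, the cadherin of basal layers, went the other way, at 17.1 and 26.1 CPM against 76.8 and 75.4 CPM. Of the 12 gap and tight junction genes compared, Cldn1, Cldn4 and Ocln were higher and Cldn10 lower. Against the hair shaft keratin cells 2 of 12 were higher and 4 lower. Cldn1 was at 167 and 168 CPM against 40.2 and 37.6 CPM. Among 13 genes of proteases and their inhibitors, Klk7, a peptidase that cuts desmosomal links between cornified cells, was at 34.7 and 32.2 CPM against 2.35 and 2.65 CPM, and the lysosomal Ctsl was lower, at 74.4 and 69.1 CPM against 181 and 216 CPM.

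Of 25 lineage transcription factors, 8 were 2-fold higher and 8 lower than in all other cells, with a median log2 ratio of 0.18 and 0.13. Against the hair shaft keratin cells 4 of 22 were higher and 7 lower, with a median of −0.34 and −0.50. The list summed to 5799 and 6089 CPM, against 7519 and 7813 CPM in those cells. The levels that follow are set against all other cells. Gata3 was at 804 and 805 CPM against 148 and 147 CPM. Foxn1, the factor missing in nude mice, was at 64.9 and 80.0 CPM against 8.78 and 8.38 CPM, and Dlx3 at 290 and 294 CPM against 91.7 and 100.3 CPM. Zfp750, Grhl3, Klf4, Klf5 and Ovol1, which act in terminal differentiation of epidermis, completed the higher genes, with Klf4 at 405 and 463 CPM against 74.8 and 101 CPM and Zfp750 at 216 and 220 CPM against 29.2 and 24.9 CPM. Hoxc13, a regulator of hair shaft keratins, was lower, at 16.5 and 22.4 CPM against 116 and 113 CPM, as was Sox9, a factor of the ORS, at 18.2 and 24.2 CPM against 220 and 201 CPM. Cux1 was at 2036 and 2124 CPM, and its log2 ratios of 0.81 and 0.53 did not reach 2-fold.

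Among signalling genes, Notch1, Notch2 and Notch3 were higher and Ptch1 and Gli2 lower than in all other cells. Against the hair shaft keratin cells the Notch list was not higher, summing to 909 and 929 CPM against 1642 and 1652 CPM there, with 1 of 8 genes 2-fold higher, 3 lower and a median of −0.69 and −0.62. Of the 10 Notch pathway genes compared, 5 were 2-fold higher and 2 lower. Notch3 was at 133 and 114 CPM against 14.2 and 11.2 CPM, Notch1 at 410 and 442 CPM against 136 and 118 CPM, and Notch2 at 121 and 122 CPM against 34.8 and 33.1 CPM, while the ligand Jag2 was at 13.4 and 7.60 CPM against 97.4 and 91.0 CPM. All 7 Hedgehog pathway genes passed 2-fold. Shh, the ligand, was higher at 128 and 170 CPM against 51.8 and 60.4 CPM, and the other 6 were lower, with the receptor Ptch1 at 178 and 156 CPM against 467 and 543 CPM and the effector Gli2 at 36.1 and 33.3 CPM against 191 and 221 CPM. Of 14 BMP pathway genes none was 2-fold higher and 2 (Bmp2 and Nog) were counted as lower, beside 16.4% lower over all genes. Nog, a BMP antagonist, had no UMIs in the IRS keratin cells against 0.453 and 0.563 CPM in the others. At so low a level an absence of UMIs cannot show that Nog was 2-fold lower. Of 10 Wnt response genes 4 were lower and none higher, among them Lgr5 at 23.8 and 23.5 CPM against 262 and 287 CPM and Wnt5a at 11.8 and 10.5 CPM against 64.9 and 57.5 CPM. Against the hair shaft keratin cells, 6 of 13 BMP genes and 4 of 9 Wnt response genes were lower and none higher, beside 5.39% lower over all genes. Of 6 Hedgehog genes 1 was higher and 1 lower there, and that list summed to 508 and 513 CPM against 614 and 711 CPM.

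Marker lists of other compartments went both ways. All 10 genes of the ORS and basal layer were 2-fold lower than in all other cells. Against the hair shaft keratin cells only 1 of the 10 was lower and none higher. The list summed to 838 and 732 CPM, against 834 and 828 CPM in those cells. The levels that follow are set against all other cells. Krt14 was at 182 and 89.8 CPM against 1222 and 822 CPM, and Krt15 at 103 and 116 CPM against 813 and 713 CPM. Krt17, a keratin of the companion layer and ORS, was at 275 and 337 CPM against 1786 and 1683 CPM. The 6 fibroblast genes were all lower and summed to 8.40 and 1.81 CPM against 86.9 and 77.0 CPM, while immune and endothelial genes were near 0 in both sets. The 5 immune genes summed to 1.96 and 5.07 CPM against 1.70 and 1.80 CPM in the other cells (1 of 2 compared was 2-fold higher, Cd52, with 5 and 8 UMIs), with Ptprc and Tyrobp at 0, and the 3 endothelial genes summed to 2.52 and 1.09 CPM against 1.27 and 1.33 CPM. The 6 sebaceous genes summed to 457 and 317 CPM against 194 and 175 CPM, with 1 higher and 2 lower. The higher one was Mgst1, a glutathione transferase, at 374 and 267 CPM against 79.4 and 57.3 CPM. The 7 suprabasal genes summed to 3034 and 3032 CPM against 2545 and 2185 CPM, with Sbsn and Calm4 2-fold higher among 6 compared and 1 lower. Hair shaft keratins summed to 77.5 and 74.9 CPM, but in PADI4 WT 90 of these UMIs were Krt31 UMIs in 2 cells, and Krt31 had no UMIs in the cells of the other library. In PADI4 WT, 2 of the 232 cells also passed the limit for hair shaft keratins, and in the other library none did.

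Set against the hair shaft keratin cells, the IRS keratin cells were higher in Fbp1, Nkd2, Ctsc, Tmem45a and Klk7 and in most genes of the G2 and M phases. Of the 8 protease and inhibitor genes compared, 1 (Klk7) was higher and 2 were lower. Of 9029 genes compared, 669 (7.41%) were at least 2-fold higher in both libraries and 487 (5.39%) lower, around a median of 0.08 and 0.07. Fbp1 had 1 UMI in the hair shaft keratin cells of PADI4 WT at 0.314 CPM and none in those of the other library. Nkd2 was at 0.941 and 0 CPM there, Ctsc, a lysosomal dipeptidyl peptidase, at 1.88 and 0 CPM against 311 and 292 CPM in the IRS keratin cells, and Tmem45a at 0.628 and 0.407 CPM against 194 and 167 CPM. Klk7 had no UMIs in the hair shaft keratin cells of either library. On the other side, Krt35, a hair shaft keratin that helped to choose those cells, was at 4850 and 5406 CPM against 19.0 and 56.8 CPM, and Bmp6 had 0 and 1 UMIs in the IRS keratin cells. Krt28 was not absent from the hair shaft keratin cells, with 530 and 550 CPM against 2629 and 2702 CPM, and UMIs in 96.2% and 89.9% of them.

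Both cell cycle lists stood above those of the hair shaft keratin cells. Of 51 genes of the G2 and M phases compared, 47 were 2-fold higher and none lower, with a median log2 ratio of 2.09 and 2.48. Of 41 S phase genes, 24 were higher and none lower, with medians of 1.15 and 1.40. Mki67, a marker of cycling cells, had UMIs in 80.6% and 78.1% of the IRS keratin cells and in 33.8% and 26.4% of the hair shaft keratin cells, and with cells thinned to 2000 UMIs in 58.6% and 56.9% against 13.3% and 10.7%. Among all other cells Mki67 UMIs were in 61.3% and 57.1%, and with cells thinned in 37.1% and 31.2%. Against all other cells 4 of 52 G2 and M phase genes were higher and none lower, and 9 of 42 S phase genes were lower and none higher, beside 4.52% higher and 16.4% lower over all genes. The medians of these lists were 0.54 and 0.80 for the G2 and M phases and −0.52 and −0.59 for the S phase. Cdkn1a, an inhibitor of cell cycle kinases, was at 311 and 296 CPM against 76.4 and 57.0 CPM in all other cells and 560 and 465 CPM in the hair shaft keratin cells.

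The 392 cells were divided into 4 groups of 98 by their keratin level, with limits of 29.4, 44.9 and 74.9 UMIs per 10000, to describe how they varied along it, on CPM computed without the 4 selecting keratins. Between the highest and the lowest group, 66 of 5236 genes (1.26%) were at least 2-fold higher in both libraries and 190 (3.63%) lower. Genes of DNA replication were lower where keratin was higher: 32 of the 34 S phase genes compared were 2-fold lower and none higher, with a median log2 ratio of −2.26 and −2.10, against −0.01 and −0.03 over all genes. Summed, the S phase list stood at 4567, 2791, 1873 and 1081 CPM from the lowest to the highest group in PADI4 WT and at 4604, 2544, 2554 and 1084 CPM in the library labelled PADI4 cKO. Mcm2, a subunit of the replicative helicase, was at 51.9, 35.8, 17.1 and 5.87 CPM in PADI4 WT and at 61.9, 17.4, 16.4 and 10.1 CPM in the other library. The list of the G2 and M phases was lower in the highest group alone, at 11890, 13070, 13140 and 8316 CPM in PADI4 WT and 11850, 13560, 15310 and 6262 CPM in the other library, and 5 of its 50 genes were 2-fold lower.

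Of the gene lists, 2 of 9 desmosomal genes, 2 of 7 genes of proteases and their inhibitors and none of 5 suprabasal genes were 2-fold higher in the highest keratin group, and none of these was lower. The genes that follow are among the highest of this comparison or were named for their role. Tchh was at 15.3, 23.8, 86.8 and 2511 CPM across the groups in PADI4 WT, of which the single cell named above made up most, and at 9.84, 144, 68.2 and 711 CPM in the library labelled PADI4 cKO. Prr9 was at 17.3, 90.6, 218 and 657 CPM and at 56.2, 32.2, 74.97 and 524 CPM, and Crym at 14.2, 21.5, 25.1 and 169 CPM and at 0, 12.4, 4.09 and 298 CPM. Klk7 was at 6.11, 15.5, 38.8 and 83.3 CPM and at 12.7, 18.6, 35.4 and 78.6 CPM, and Dsc1 at 73.3, 119, 178 and 275 CPM and at 75.9, 127, 161 and 218 CPM, a step upward from each group to the next in both libraries. Krt28 was at 2016, 2611, 2630 and 3425 CPM and at 2211, 2601, 2879 and 3386 CPM. Gata3 differed little, at 744, 807, 839 and 855 CPM and at 679, 837, 886 and 840 CPM. The median depth of the cells was 16687 and 17358.5 UMIs in the lowest group and 13590.5 and 13028.5 in the highest, and its part in these differences was not tested. With cells thinned to 2000 UMIs too few UMIs were left for most genes, and 9 were higher and 12 lower.

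**Figure D3:**
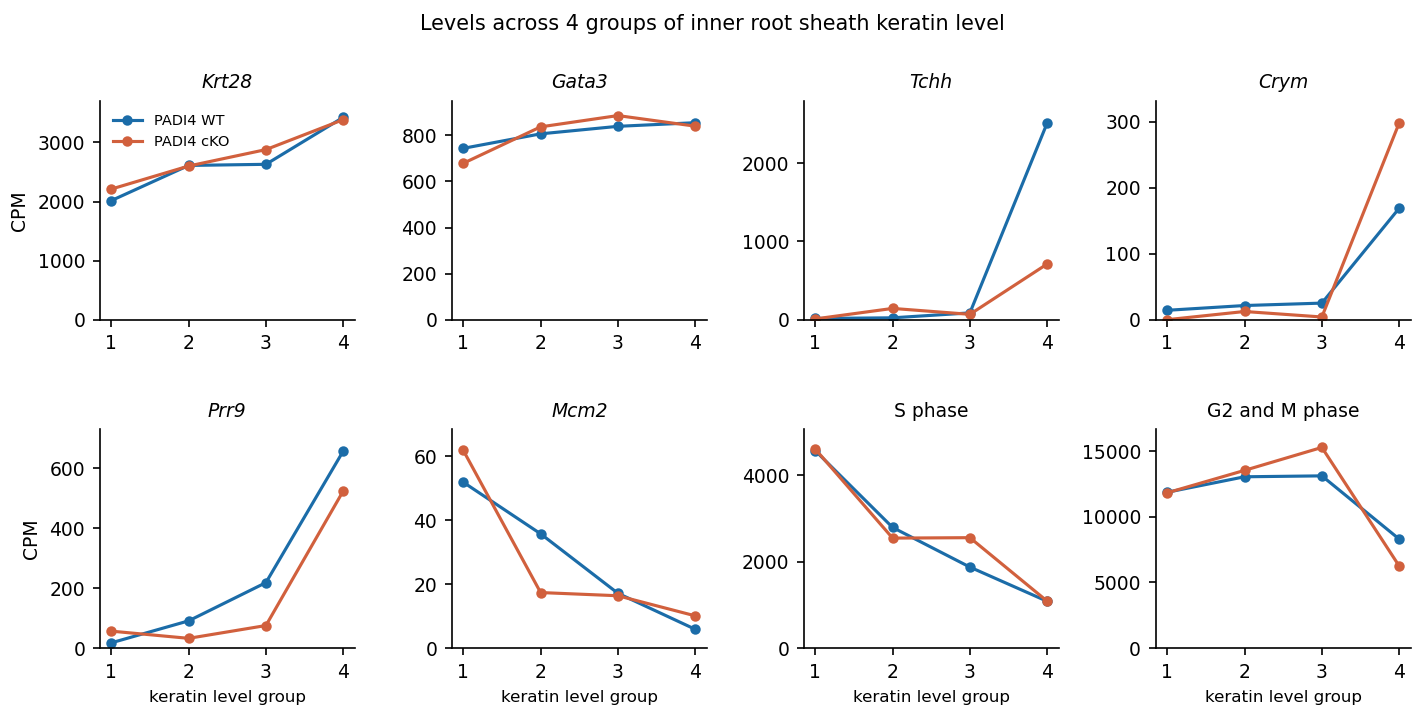
Level in CPM without the 4 selecting keratins (y axes from 0, linear) of 6 genes and of the summed S phase and G2 and M phase lists in the 4 groups of keratin level from lowest (1) to highest (4), with a line for each library. Tchh, Crym and Prr9 are highest and Mcm2 and the S phase list lowest in group 4 of both libraries, where the S phase list is at 1081 and 1084 CPM.

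Clustering of the cells on 1000 variable genes, without the 4 keratins, cell cycle lists, sex-linked, mitochondrial and ribosomal protein genes, gave 5 clusters that each held cells of both libraries. They are given by number, because Krt72 and Krt26 of the cuticle had a summed level under 5 CPM in either library (Krt72 at 2.52 and 2.90 CPM and Krt26 at 1.96 and 0.724 CPM) and too few layer markers could be read to name a layer. Cluster 1 had 54 PADI4 WT cells and 30 of the other library, cluster 2 had 52 and 36, cluster 3 had 41 and 43, cluster 4 had 71 and 41 and cluster 5 had 14 and 10. Clusters 1 and 3 were led by genes of replication and division, among them Dna2, Ccne1 and Hist1h1b in cluster 1 and Hist1h2af and Cenpi in cluster 3, although the cell cycle lists had been left out. Top2a, the topoisomerase of dividing cells, was at 983 and 997 CPM in cluster 1 and 985 and 944 CPM in cluster 3, against 86.5 and 75.2 CPM in cluster 2 and 163 and 162 CPM in cluster 4.

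The clusters differed in which type II keratin prevailed, although neither keratin was used to form them. Krt73 made up 86.02% and 90.6% of the summed Krt71 and Krt73 UMIs in cluster 1 and 76.8% and 86.2% in cluster 2, against 35.7% and 53.8% in cluster 3 and 20.4% and 35.7% in cluster 4. Of the cells with a Krt73 share of at least 90%, clusters 1 and 2 held 70 of 94 in PADI4 WT (36 and 34 cells) and 47 of 72 in the other library (22 and 25 cells). Of the cells with a share of at most 10%, clusters 3 and 4 held 26 and 23 of 57 in PADI4 WT and 7 and 8 of 20 in the other library. In cluster 3 the prevailing keratin differed between the libraries, with Krt71 ahead in PADI4 WT (1464 against 812 CPM of Krt73) and Krt73 ahead in the library labelled PADI4 cKO (1091 against 939 CPM of Krt71). Krt27 was higher in the clusters of low Top2a, at 1063 and 1103 CPM in cluster 2 against 330 and 329 CPM in cluster 1, and at 824 and 485 CPM in cluster 4 against 245 and 292 CPM in cluster 3.

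Cluster 2, rich in Krt73, was led by Crym (288 CPM against 9.13 CPM in the other IRS keratin cells), Prr9 (847 against 59.0 CPM), Bmp8a, a BMP ligand, and Fbp1 (527 against 95.9 CPM). Its cells also had the highest level of Cdkn1a, at 519 and 439 CPM, and of Lef1, at 519 and 501 CPM against 247 and 220 CPM in cluster 4. Cluster 4, rich in Krt71, was led by Tchh, at 2397 and 675 CPM, and by Sytl2, Krt79, Krt75 and Ly6d. Krt75, the keratin of the companion layer, was at 129 and 74.4 CPM there and had no UMIs in cluster 2. Klf4 was at 700 and 687 CPM in cluster 4 and 306 and 470 CPM in cluster 2, and Anxa1, an annexin of cornifying cells, was 990 CPM against 201 CPM in the other cells. In Tchh the highest-keratin cell of PADI4 WT gave 67.1% of the UMIs of cluster 4, and single cells gave 37.4% of those of Sytl2, 36.3% of Ly6d, 31.4% of Krt75, 12.8% of Krt79 and 6.58% of Anxa1. Gata3 was higher in clusters 1 and 2, at 1025 and 952 CPM in cluster 1 and 997 and 1024 CPM in cluster 2, than in cluster 3 at 762 and 704 CPM and cluster 4 at 636 and 695 CPM.

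**Figure D4:**
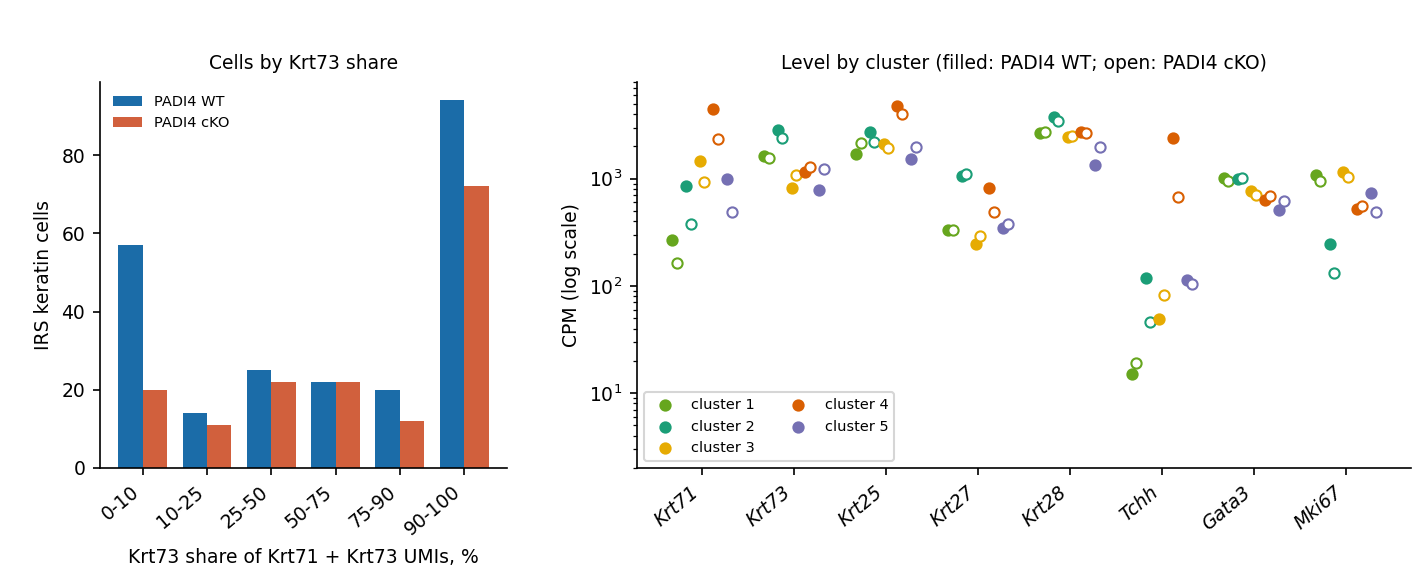
Left, number of IRS keratin cells (y axis) by the share of Krt73 in the UMIs of Krt71 plus Krt73 of the cell (x axis, percent, ranges of unequal width), for each library. Right, summed level in CPM (y axis, log scale) of 8 genes in clusters 1 to 5, PADI4 WT filled and PADI4 cKO open; Krt71 is highest and Tchh is highest in cluster 4, Krt73 is highest in cluster 2, and Mki67 is lowest in cluster 2.

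Cluster 5 was unlike the others. Its 24 cells had a median of 31290.5 UMIs, against 12065.5 to 18110.5 in the other clusters, and a doublet caller (Scrublet) marked 9 of its 14 PADI4 WT cells and 8 of its 10 cells of the other library, but 1 cell of the other 4 clusters together. It was led by Stfa3, Abi3bp, Lgr5, a marker of HF progenitor cells, Edar, the ectodysplasin receptor, Cdh13 and Cxcl14. Lgr5 was at 159 and 222 CPM in it, against at most 3.46 CPM in clusters 1 to 4. Krt14 was at 1016 and 374 CPM in it and at 4.18 to 208 CPM elsewhere. One of its cells held 176 of the 193 Stfa3 UMIs of PADI4 WT. The median log2 ratio of the ORS and basal genes against all other cells, at −2.71 and −2.92 over all IRS keratin cells, was computed with these cells included. Over 13 alternatives this median ran from −4.37 to −2.65 in PADI4 WT and from −4.20 to −2.56 in the other library. In each library 7 of the 13 counted as unchanged.

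Between the libraries, Krt71 and Tchh lay past 0.5 among the IRS genes given here, though not in the Xist cells alone. Of 7392 genes with at least 100 UMIs in the IRS keratin cells, 136 (1.84%) had a log2 ratio, PADI4 cKO over PADI4 WT, above 0.5 and 184 (2.49%) one below −0.5, around a median of 0.005. Krt28 had a ratio of 0.04 (exact 95% counting interval −0.005 to 0.08), Gata3 0.003 (−0.08 to 0.08), Krt73 0.04, Krt25 −0.10 and Krt27 −0.19. Krt71 was at 1728 CPM in PADI4 WT and 921 CPM in the library labelled PADI4 cKO, a ratio of −0.91 (−0.98 to −0.84). Without the highest-keratin cell of each library the ratio was −0.65. In cells positive for Xist but negative for Y-linked genes, Krt71 was at 910 CPM in PADI4 WT and 948 CPM in the library labelled PADI4 cKO, a ratio of 0.06, while the Y-linked, Xist-negative cells of PADI4 WT had 2164 CPM, or 1657 CPM without the highest-keratin cell. Krt25 had −0.10 over all cells and 0.46 in the Xist cells (1823 and 2504 CPM in 55 and 154 cells), and it was 0.06 without the highest-keratin cells and 0.16 with cells thinned to 2000 UMIs. In the Xist cells Krt73 had −0.10, Krt28 −0.12, Krt27 −0.19 and Gata3 0.01. Tchh had a ratio of −1.73, which was −0.12 without the highest-keratin cells and 0.26 in the Xist cells.

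Many of the remaining genes with the largest ratios were sex-linked genes, predicted genes or genes held by few cells. Adamts1 (1.19), Tiparp (1.12) and Rccd1 (1.11), also among the 10 highest, were neither sex-linked nor predicted genes. Adamts1 had UMIs in 30 and 29 cells, with 13.2% and 18.3% of them in its highest cell. Xist had a ratio of 1.903 and Eif2s3y and Uty no UMIs in the library labelled PADI4 cKO, with 273 and 242 UMIs in PADI4 WT. The predicted genes Gm10260 (12.6 and 154 CPM) and Gm8797 (71.4 and 8.69 CPM) differed by as much in the other cells (14.7 and 174 CPM, and 65.2 and 9.32 CPM). Whether reads of such genes are shared with near-identical copies was not tested. Stfa3, Cdh13, Abi3bp and Tspear, among the 10 lowest, each had their highest PADI4 WT cell in cluster 5 (described above), and that cell held 91.2%, 35.9%, 48.4% and 72 of 144 of the UMIs. Krt35, at 19.0 and 56.8 CPM, was found in 27 and 16 cells, and 1 cell held 69 of its 157 UMIs in the library labelled PADI4 cKO.

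Foxq1, a forkhead factor required in the hair medulla, was the one transcription factor among the 10 genes with the highest ratios. It was at 47.6 CPM in PADI4 WT and 105 CPM in the library labelled PADI4 cKO (170 and 290 UMIs), a ratio of 1.14 (exact 95% counting interval 0.86 to 1.42). It had UMIs in 22.4% of the PADI4 WT cells and 32.5% of the others (52 cells each), with no more than 14.7% of the UMIs in 1 cell. The ratio was 1.05 in the Xist cells, and it lay between 0.90 and 1.34 in all 16 alternatives computed. The alternatives that changed the gene minimum to 50 or 500 UMIs could not move the ratio of a single gene. Among all other cells Foxq1 was at 8.56 and 9.41 CPM. It was higher in the library labelled PADI4 cKO in each of the 5 clusters, with 28.2 and 133.5 CPM in cluster 1 and 24.2 and 40.6 CPM in cluster 4.

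Of 19 genes that the study named from these same libraries, 17 could be compared, 5 lay above 0.5 and none below −0.5. Hmga1b, 1 of the other 2, had 11 and 69 UMIs, under the minimum of 100, at 3.08 and 24.97 CPM. It differed likewise in all other cells (4.67 and 23.6 CPM). Its near-copy Hmga1 was at 70.8 and 45.2 CPM, and whether reads are shared between them was not tested. The study also reports HMGA1b protein as higher in cultured PADI4 cKO progenitor cells. A list chosen on these samples is not independent evidence of its direction. The 5 were Krt35, Foxq1, Fosb (0.79), Fos (0.72) and Egr1 (0.52). The study reported Krt35 and Foxq1 as higher in its medulla cluster, and Fos, Fosb and Egr1 in most or all clusters it compared. Several of the 19 genes were thus named for clusters other than the IRS, and the count of 5 is no check of the study. Fos, Fosb and Egr1 are immediate early genes, which respond within minutes to stress including cell dissociation. They were also higher in the other cells labelled PADI4 cKO, with Fos at 171.5 and 234 CPM and Fosb at 97.2 and 176.5 CPM. The cause of the difference in these genes was not tested. Of 9 immediate early genes compared these 3 passed and none lay below −0.5. None of 22 lineage transcription factors and 1 of 7 Notch pathway genes (Heyl, 0.65) passed. Of 7 genes of the ORS and basal layer 3 lay below −0.5 and none above, among them Krt14 at 182 and 89.8 CPM, which was highest in clusters 4 and 5. Of the cell cycle lists, 2 of 40 S phase genes lay below −0.5 and none above, and none of 51 G2 and M phase genes passed either limit. Of 81 ribosomal protein genes compared, 1 lay on each side, with a median of −0.02, and of 13 regulators of rRNA processing and translation none passed, with a median of 0.12. Shh was at 128 and 170 CPM, a ratio of 0.41 (0.22 to 0.60), and Trps1, a repressor active in HF matrix cells, at 431 and 564 CPM, a ratio of 0.39.

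**Figure D5:**
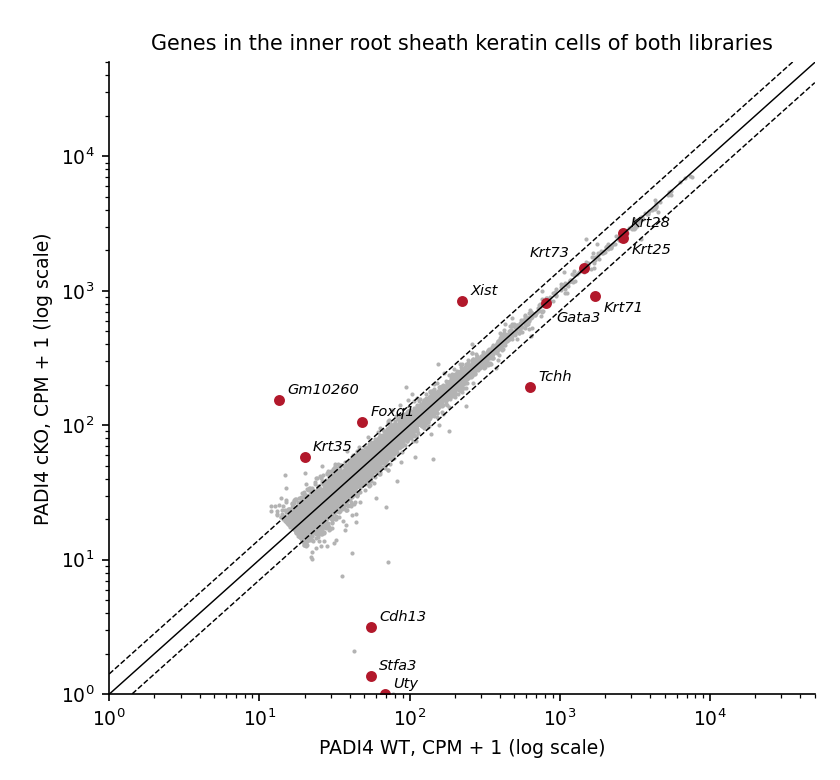
Level of each of 7392 genes in the IRS keratin cells of PADI4 WT (x axis) and of PADI4 cKO (y axis), both in CPM plus 1 on log scales; the solid line marks equal levels and the dashed lines a log2 ratio of 0.5 in either direction. Gata3, Krt28, Krt25 and Krt73 lie on the line of equal levels, Foxq1, Krt35, Xist and Gm10260 above the dashed lines and Krt71, Tchh, Cdh13, Stfa3 and Uty below them.

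Of the Padi genes, Padi3 was the one measurable in these cells. It had UMIs in 9.91% of the PADI4 WT cells (23 of 232) and in 6.25% of the cells labelled PADI4 cKO (10 of 160), against 5.08% and 4.26% of all other cells and 18.1% and 15.7% of the hair shaft keratin cells. Padi1, an enzyme of the epidermis and IRS, had UMIs in 1 cell of each library, and Padi2 in none, a count of 0 that allows up to 1.29% and 1.88% of cells with a UMI and sets no limit on cells expressing the gene. Padi4 had UMIs in 0.862% of the PADI4 WT cells (exact binomial 95% interval 0.105% to 3.08%) and 0.625% of the others (0.0158% to 3.43%), and in all other cells in 1.12% (0.902% to 1.36%) and 1.05% (0.832% to 1.30%), which these intervals hold.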

How the data were processed

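Mouse P1 back skin cells of 1 PADI4 WT and 1 PADI4 cKO library were used. Each value is a count of UMIs per gene and droplet, deposited by the authors as unfiltered raw matrices of all barcodes, and the submitters' processing notes name Cell Ranger 7.1.0, the mm10 genome and Scanpy. Library totals were 143938990 and 143945294 UMIs, and 8785 and 7882 barcodes had at least 2000 UMIs.

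Droplets were kept at 2000 to 60000 UMIs, 1000 to 8000 genes and at most 20% mitochondrial UMIs. The cells, the gene lists and the comparisons were chosen with earlier results of these data known. UMIs were summed over cells, 0.5 UMI was added before log2 ratios, and genes needed at least 100 UMIs over the cells compared. A gene was counted when it passed 2-fold in both libraries, or a log2 ratio of 0.5 between libraries. Named genes were members of the lists, of which long lists gave their highest and lowest members, the highest and lowest genes of each comparison and the leading genes of each cluster. Some members of longer lists (Dsp, Perp, Notch1, Top2a, Klf4 and others) were named for their role after their values were seen. Shares have exact binomial intervals and ratios exact conditional binomial intervals, at 95%. Leiden clustering used 1000 genes, 20 components, 15 neighbours and a resolution of 0.5. Doublets were called by Scrublet with the PADI4 cKO threshold of 0.207 for both libraries, since the PADI4 WT threshold called 1 cell. Doublets were kept in the main values. Droplets under 100 UMIs gave the free RNA. Scripts were tested on simulated data. Python 3.11.15, numpy 2.4.6, scipy 1.17.1, pandas 2.3.3, scanpy 1.11.5, python-igraph 0.11.9 and matplotlib 3.10.9 were used. The alternatives that left out the highest-keratin cells or cluster 5, or subtracted free RNA by collagens, were added after seeing the data.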

Additional observations from a re-analysis of the deposited data

How the results depend on the processing

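Of 146 alternative values of the main counts and shares 117 stayed within 1.5 times or within counting error and 29 moved. No reversal was defined for these values. Of the alternative values of list medians and gene ratios 493 stayed the same, 78 moved and 3 reversed. Those that stayed the same include gene ratios under another gene minimum, which could not move. With a keratin limit of 10 per 10000 the share of IRS keratin cells was 4.10% and 3.36%, with 50 it was 1.21% and 0.834%. A resolution of 1.0 gave 8 clusters. Against hair shaft keratin cells, thinning to 2000 UMIs left 194 genes higher and 139 lower, and a minimum of 500 UMIs left 292 and 201. Against other cells thinning left 1507 genes lower. Between the highest and lowest keratin groups, the counts higher and lower were 9 and 12 when thinned, 105 and 297 at a minimum of 50 UMIs, 13 and 25 at 500, 35 and 107 in the Xist cells and 25 and 91 at a limit of 50, and 110 were higher at a limit of 10. Between the libraries they were 39 and 43 when thinned, 287 and 396 at a minimum of 50 and 16 and 10 at 500. In the Xist cells 266 genes were higher (61.9% of those past the limit, against 42.5%), of which 38 were among the 136, and at a limit of 50 per 10000 115 were lower and 63.5% of those past the limit were higher. More genes were higher than lower also at a limit of 10 (164 and 130), without cluster 5 (161 and 136) and at a minimum of 500. In the other alternatives fewer were higher than lower, as in the main values. The log2 ratio between the libraries turned for Krt71 (0.058) and Tchh (0.26) in the Xist cells and for Krt35 when thinned (−0.29). The small ratios of Krt25 (0.46), Krt73 (−0.10) and Krt28 (−0.12) also turned in the Xist cells, and that of Krt25 without the highest-keratin cells (0.06) and when thinned (0.16). The cause was not tested. The free RNA share from hemoglobin came to 327% in PADI4 WT and gave no usable value. No paired analysis was possible because each genotype had 1 library. For the same reason no replicate could be left out, and the genotype cannot be told apart from the library and its sex mix.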

Other observations

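Transcripts of Hba-a1, which encodes an alpha chain of hemoglobin, were unevenly spread. They were found in 16 of the 232 PADI4 WT IRS keratin cells (17 UMIs) and in 12 of the 160 PADI4 cKO cells (14 UMIs). Among all other cells they were found in 3 of 8429 and 9 of 7632 cells, and in none of the hair shaft keratin cells. Hba-a2 was found in 6 IRS keratin cells of each library. The beta chain genes Hbb-bs and Hbb-bt had no UMIs in the IRS keratin cells of either library. No IRS keratin cell had more than 2 UMIs of Hba-a1. In droplets with fewer than 100 UMIs, Hba-a1 had 5 and 36 UMIs and Hbb-bs 5 and 74 UMIs. These genes were looked at after the free RNA estimate from hemoglobin had failed.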
